A study of Mus musculus with 22 samples.

Results

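The 8 numbered RNA-seq libraries of mouse embryonic stem cells (ESCs) carrying a conditional knockout (cKO) of Ythdc1 were compared, 4 treated with 4OHT and 4 with the solvent DMSO. They were chosen by the column names of the deposited count table, which give genotype, treatment and a number from 1 to 4, and they are 8 of 22 libraries in the series. The cells are male ESCs from the inner cell mass, grown without feeder cells in serum and LIF. All 8 libraries, controls included, come from the Ythdc1-cKO genotype, and the titles name 2 ESC lines, ESC#1 and ESC#2, with 2 libraries per line and treatment. The columns do not carry the line, so the comparison is 4 against 4, and the effect within a line was not analysed here. The labels used here state neither the Cre driver and the deleted exons nor the dose and time of 4OHT. No library of Cre-bearing cells without the conditional allele is in the comparison, so an effect of 4OHT or of Cre itself cannot be told apart from that of the allele. Whether each library is its own culture is not stated. The p-values therefore reflect the spread among these libraries alone, which may be technical.

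YTHDC1 is the nuclear reader of N6-methyladenosine (m6A), a methyl mark that the METTL3-METTL14 writer places on RNA while it is made. The protein is known to act in splicing, in the choice of polyadenylation sites, in export, and in the decay of chromatin-bound and retroelement RNA. 4OHT is the ligand that brings a Cre recombinase fused to a modified estrogen receptor into the nucleus, where it removes the sequence between loxP sites. ESCs are known to hold a mixture of states: most express the naive pluripotency factors, and a rare fraction at a time expresses genes typical of the two-cell embryo.

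Total counts per library were 37773264 to 51431820 under DMSO and 32233283 to 48847046 under 4OHT. Repeat families took 21.3 to 23.8% of counts under DMSO and 26.9 to 28.4% under 4OHT, and 30889 to 31858 and 31686 to 33554 entries had a count. The first principal component, with 81.7% of the variance, separated the treatments, and the second, with 7.24%, set DMSO library 1 apart. ESC markers (9 genes, summed) stood at 1709 to 1933 CPM (counts scaled to library size) under DMSO and 1172 to 1452 under 4OHT, and 4 of the 9 fell. Summed levels of 5 primitive endoderm markers were 9.22 to 13.0 and 14.1 to 21.8 CPM, and 4 of them rose. Markers of fibroblasts or feeders (8 genes) summed to 18.3 to 23.2 and 11.6 to 19.03 CPM, of trophectoderm (4) to 13.4 to 16.3 and 14.7 to 20.5, of neural cells (4) to 28.5 to 47.1 and 46.1 to 53.02, and of blood and endothelium (4 found of 5) to 39.6 to 50.97 and 42.8 to 48.9. No marker found in the table was at 0 in every library. In bulk RNA, fewer cells of a type and less RNA per cell cannot be told apart.

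Ythdc1 itself (chromosome 5, 86804221 to 86836659, mm10) is the check on the labels. Its level was 77.3, 68.2, 72.3 and 76.4 CPM in DMSO libraries 1 to 4 and 62.3, 48.2, 60.2 and 51.2 CPM in 4OHT libraries 1 to 4. Every treated library lay below every control library. The log2 fold change was -0.41 (SE 0.0812, adjusted p = 0.00064 by edgeR). Counts are summed over the gene, so reads from exons outside the deletion count as well, and the share of transcripts with an intact reading frame was not measured.

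Of 24385 entries tested, 5783 rose and 5225 fell by edgeR's quasi-likelihood test at an adjusted p under 0.05, which is 45.1% called, 23.7% higher and 21.4% lower. At least 2-fold changes were found in 3169 entries, 13.0% of those tested, with 2225 higher and 944 lower. The 2 groups of libraries did not overlap in 10157 entries, 41.7%. Without DMSO library 1 the test called 10931 entries. The median log2 fold change was 0.02 over all entries and -0.01 over the 23353 gene entries. With so many entries called, each gene list below is read against these shares. The shares depend on the kind and level of entry. Of repeat families and other non-gene entries 61.7% rose and 0.775% fell, and of protein-coding genes 24.4% rose and 28.5% fell. Among protein-coding genes at 10 to 100 CPM 23.8% rose and 35.4% fell, and over 100 CPM 21.9% and 47.0%. For lists of well expressed genes these last shares are the nearer measure. Lists are described by counts and medians only.

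**Figure D1:**
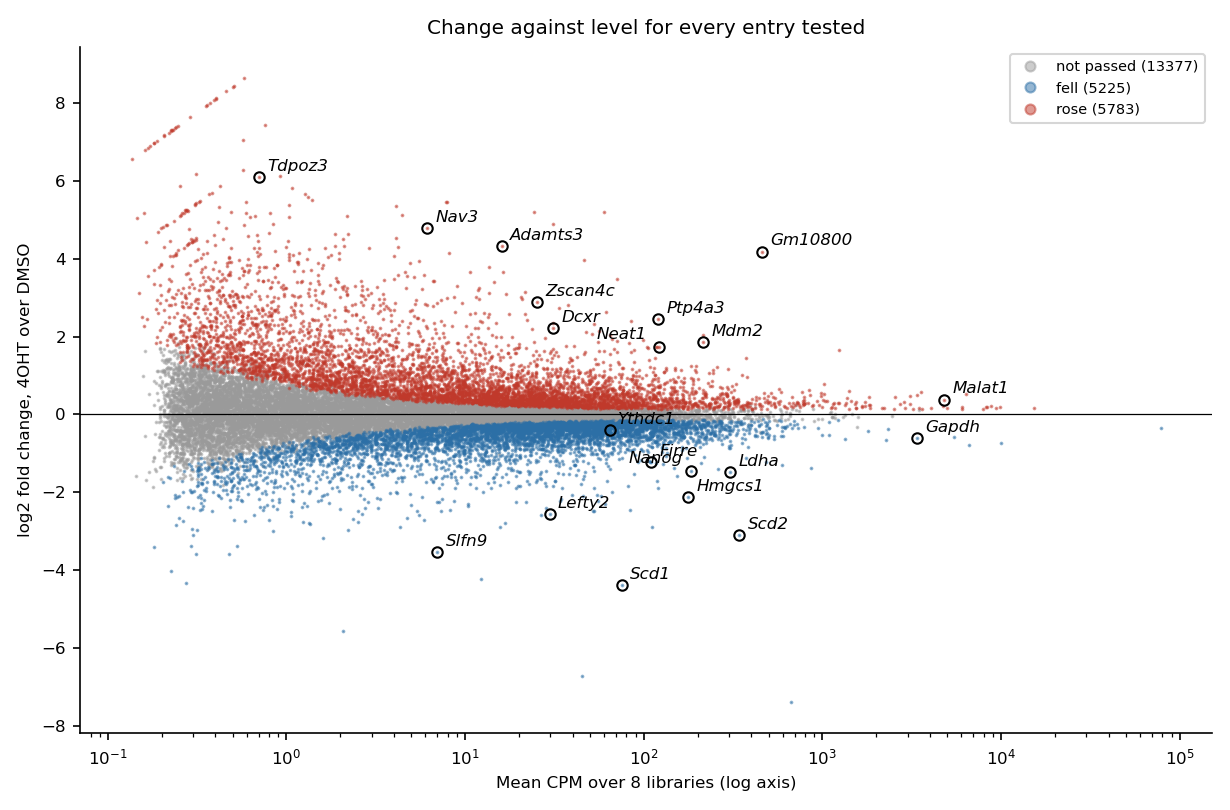
Log2 fold change of 4OHT over DMSO (vertical axis) against the mean CPM over 8 libraries (horizontal log axis) for each entry tested. Red points rose (5783), blue points fell (5225), grey points did not pass, and circles mark named genes. Scd1 and Scd2 lie far below 0 at high levels, while Adamts3, Nav3 and Gm10800 lie far above it.

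Gene entries were ranked by their change in mean CPM if they passed the test with groups that do not overlap. Among these the largest rise was in Malat1, the abundant nuclear speckle RNA (log2 fold change 0.38). It was at 3757, 4132, 4444 and 4391 CPM under DMSO and 5267, 5019.7, 5722 and 5742 CPM under 4OHT. Gm10800, which has near copies elsewhere, and the translation factor Eef1a1 (0.19) came next. Genes for large cytoskeletal and matrix proteins followed. The cytolinker Dst went from a mean of 838 to 1215 CPM (SD 40.2 and 76.5, n = 4 each), the basement membrane proteoglycan Hspg2 from 794 to 1167 CPM (SD 60.7 and 114) and the giant sarcomere gene Ttn from 83.5 to 343 CPM (SD 46.4 and 120.0). The largest falls in CPM among protein-coding genes were in mt-Co1, a subunit of cytochrome c oxidase encoded in mitochondria (6564 to 4378 CPM, SD 309.8 and 252), and in the glycolytic enzymes Gapdh (4106 to 2692 CPM, SD 258 and 196) and Pkm (2783 to 1773 CPM, SD 233 and 121). Gm26917, CT010467.1 and Gm42418, next to each other at chromosome 17 and annotated as lincRNA, rRNA and lincRNA, fell as well (log2 fold changes -0.34, -0.74 and -0.78). The last 2 overlap on opposite strands and all 3 lie at a stretch annotated as rRNA, so their counts are uncertain, and DMSO library 1 held the most of CT010467.1 and Gm42418 (18844 and 12632 CPM).

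By fold, genes were ranked if they passed the test with groups that do not overlap and a mean of 10 CPM or more in the higher group, leaving out predicted genes. The 10 largest rises by that rule were in genes with means of 0.425 to 2.51 CPM under DMSO. Nav3, a microtubule-binding protein of neurons, stood at 0.674, 0.405, 0.198 and 0.424 CPM under DMSO and 13.2, 8.01, 9.85 and 16.2 CPM under 4OHT (27.4-fold). Adamts3, a protease that trims procollagen and activates VEGF-C, stood at 1.16, 2.07, 1.11 and 1.70 CPM and then at 34.3, 24.2, 31.3 and 32.4 CPM (4.32 on the log2 scale with SE 0.173, by edgeR at adjusted p = 8.78e-11). In both genes the lowest treated library exceeded the highest control library. Ptp4a3, a phosphatase of the PRL family, was well expressed before treatment at 42.4, 37.5, 38.8 and 29.3 CPM and reached 219, 178, 210.3 and 204 CPM (5.48-fold). Other large rises were in the immune genes Nfam1 (17.7-fold) and Cd80 (9.81-fold), the leukotriene receptor Ltb4r2 (13.7-fold) and the collagen Col20a1 (12.6-fold). Under the same rule, the 10 largest falls included lipid genes, given below, and Slfn9 of the schlafen family (11.6-fold lower), Ndrg2 (7.39-fold lower), the ubiquitin ligase Trim67 (6.03-fold lower) and the kinase-like Camkv (5.62-fold lower).

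**Figure D2:**
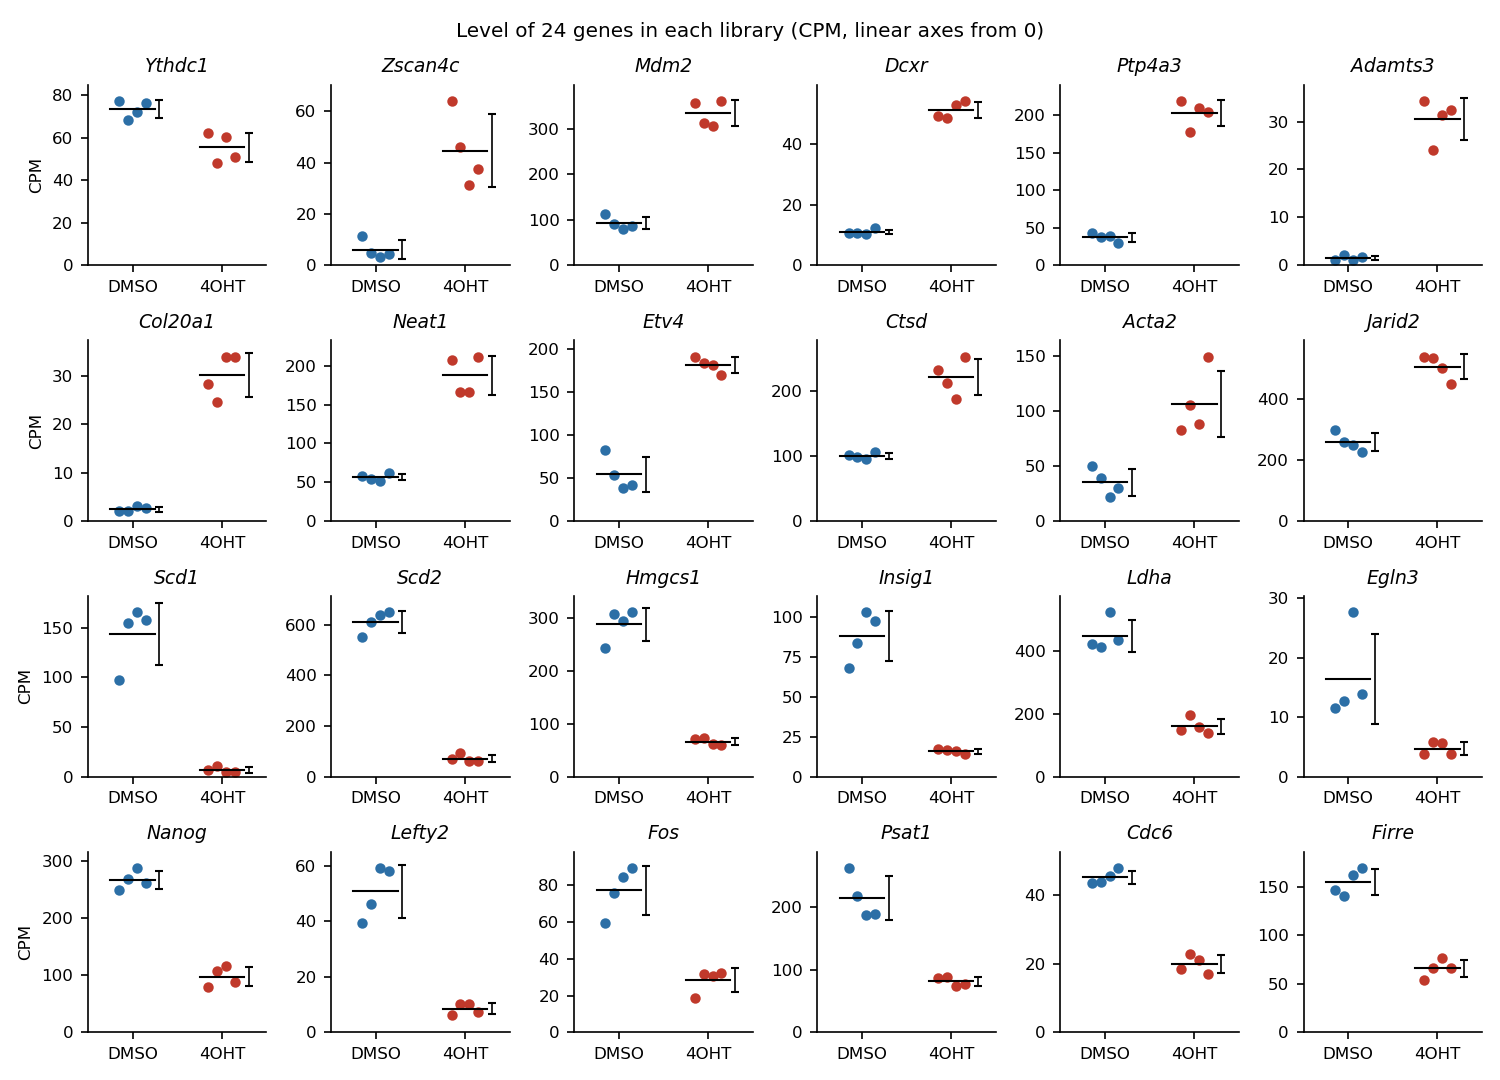
CPM (vertical axes, linear from 0) of 24 genes in each of 4 DMSO libraries (blue) and 4 4OHT libraries (red), with the mean as a line and the SD as a bar. In each panel the groups of points do not overlap. Ythdc1 moved from a mean of 73.6 to 55.5 CPM, a smaller fold change than that of the other 23 genes drawn.

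The genes of m6A and of nuclear RNA handling mostly kept or lost level. For comparison, 23.8% of protein-coding genes at 10 to 100 CPM rose and 35.4% fell, and over 100 CPM 21.9% and 47.0%. Falls at about these shares are not particular to a list. Of 22 m6A writers, readers and erasers, 0 rose and 11 fell (median -0.16). Beside Ythdc1 these include the RNA-stabilizing readers Igf2bp2 (50.2, 58.9, 65.6 and 60.2 CPM under DMSO, 20.8, 26.5, 26.0 and 28.7 CPM under 4OHT) and Igf2bp3 (log2 fold change -0.98), and the writer subunit Mettl14 (-0.40, SE 0.0782). The treated libraries lay below the controls for all 3. Mettl3, the catalytic subunit, had log2 fold change 0.15 (adjusted p = 0.132 by edgeR). Of 25 factors of the nuclear exosome, its adaptors and mRNA export, 12 fell and only Srrt, which links the cap to export and decay, rose (0.33). Among the 12 were the export cofactor Nxt1 (-1.01) and the exosome subunit Exosc8 (-0.65). With the library number as a replicate block, or without 4OHT library 4 or DMSO library 1, 2 of the 25 rose. Of 27 SR, hnRNP and polyadenylation factors 2 rose (1 without 4OHT library 1 or 2 or DMSO library 1, 3 or 4) and 16 fell, led by the cleavage endonuclease Cpsf3 (62.8 to 41.0 CPM, SD 0.589 and 2.96, log2 fold change -0.62). The splicing factor Srsf3 (-0.10) and Cpsf6 (-0.34), both known partners of YTHDC1, had different calls, and only Cpsf6 passed. Of 14 nonsense-mediated decay factors 4 rose (2 without 4OHT library 1 or DMSO library 3 or 4) and 6 fell, among them Rbm8a (-0.83) and Upf1 (-0.60).

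Of 20 nuclear long noncoding RNAs, 10 rose and 4 fell (median 0.25, against 0.02 over all entries), and 2 fell without 4OHT library 1 or DMSO library 4. Neat1, the scaffold RNA of paraspeckles, was at 57.7, 54.5, 51.9 and 62.2 CPM under DMSO and 208, 166, 166 and 212 CPM under 4OHT. No control reached a treated library (1.73 on the log2 scale with SE 0.0866, by edgeR at adjusted p = 5.54e-10). Pvt1, the neighbour of Myc, rose as well (1.41), and so did Xist (0.44) and Rmst (0.0887 to 0.626 CPM, 17 to 109 counts over 4 libraries). Firre, an X-linked RNA that organizes nuclear domains, was at 147, 140.2, 162 and 169 CPM and fell to 54.2, 66.4, 76.3 and 66.4 CPM (-1.23). Tug1 fell by 1.21. Tug1 is annotated as antisense, and the use of strand in counting is unknown here. Reads from the opposite strand may therefore be part of the counts of these RNAs, that of Xist in these male cells included.

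**Figure D3:**
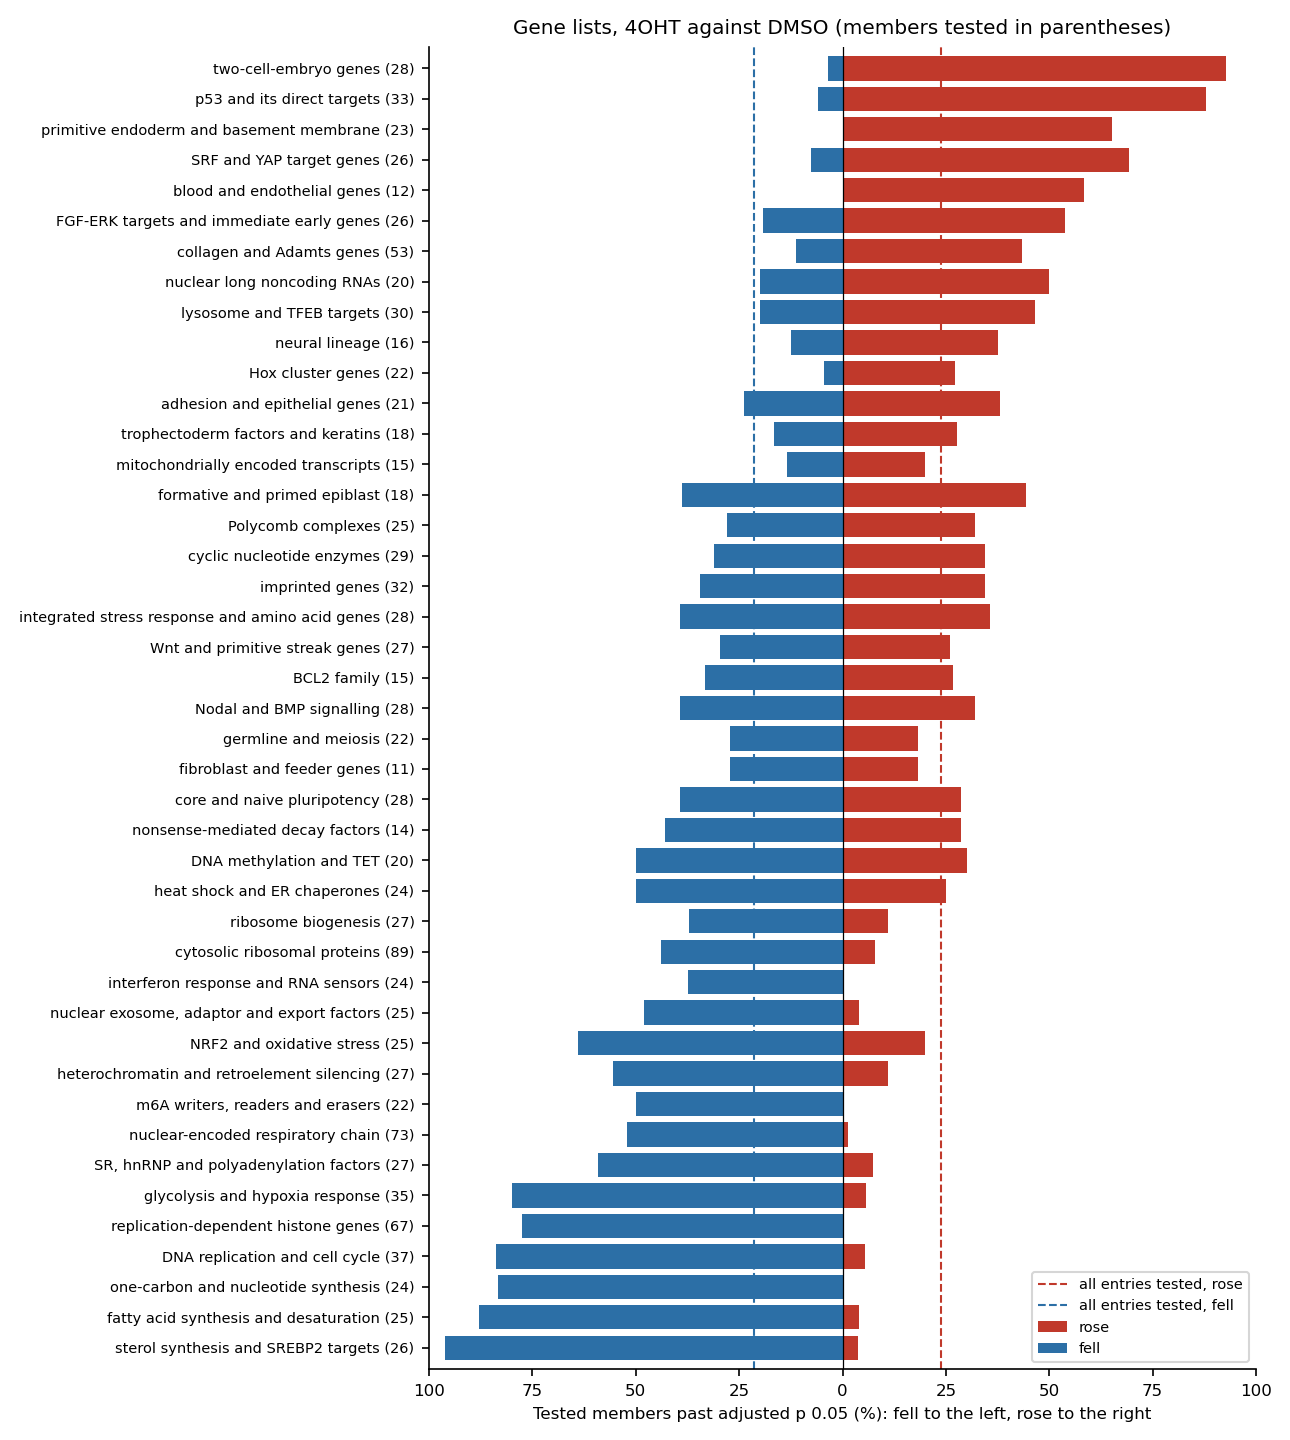
Share of tested members of 43 gene lists that rose (red, right) or fell (blue, left) at an adjusted p under 0.05, with the number tested in parentheses. Dashed lines give the shares over all entries, 23.7% and 21.4%. Of protein-coding genes, 35.4% fell at 10 to 100 CPM and 47.0% over 100 CPM, so the blue line is low for well expressed genes. Two-cell-embryo genes and p53 targets stand at the top, sterol and fatty acid synthesis at the bottom.

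Genes of the two-cell embryo, known from zygotic genome activation, rose. Of 31 listed, 28 could be tested, 26 rose at least 2-fold, the translation factor Eif4e3 fell (-0.47, not past the threshold without 4OHT library 1 or DMSO library 2 or 4) and Ubtfl1 did not pass (1.12). Since genes silent in the controls enter the test only through the treated libraries, the count is no measure of all two-cell genes. Zscan4c stood at 11.5, 4.86, 3.31 and 4.53 CPM under DMSO and at 64.0, 46.0, 31.2 and 37.4 CPM under 4OHT (2.88, SE 0.294). DMSO library 1 was the highest control and 4OHT library 1 the highest treated library, and the groups did not overlap. Tdpoz3 had 3 counts over the 4 controls and 241 over the treated libraries, Spz1 2 and 106, and Zfp352, a retrotransposed zinc finger gene, 12 and 155. The Zscan4, Usp17l and Tdpoz genes are near copies of each other, so the reads of one cannot be assigned with certainty.

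Silencing factors were examined beside them. Of 27 heterochromatin and retroelement silencing genes 3 rose and 15 fell. Trim28, the corepressor that KRAB zinc finger proteins recruit, was at 1167, 1037, 969.9 and 1020.5 CPM under DMSO and 858, 869, 839.7 and 756 CPM under 4OHT (-0.34). Its groups were apart. The H3K9 methyltransferase Setdb1 had a mean of 124 CPM in both groups (SD 2.66 and 8.01, adjusted p = 0.993 by edgeR), and the chromatin assembly subunit Chaf1b fell (-0.89). Of 20 DNA methylation and TET genes, 6 rose and 10 fell. Dnmt3l, the cofactor of de novo methylation, rose from 81.9, 57.5, 49.6 and 48.3 CPM to 184, 149, 148 and 139 CPM (1.39). The maintenance pair Dnmt1 (-0.47) and Uhrf1 (-0.75) fell, as did Dppa3 (-1.25), which keeps Uhrf1 from chromatin, and Tet1 did not pass (0.01).

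Polycomb genes split, 8 up (5 without 4OHT library 1 or DMSO library 2 or 3) and 7 down of 25. Jarid2, an accessory subunit that guides PRC2, was at 298, 257, 248 and 227 CPM and reached 537, 531, 499 and 447 CPM (0.97), whereas the methyltransferase Ezh2 (-0.67), the core subunit Suz12 (-0.59) and the accessory Phf19 (-1.30) fell. Hox genes, textbook Polycomb targets, were low: of 39 listed 22 were tested, 6 rose and Hoxa9 fell (-1.99). Without DMSO library 1, 11 rose, and 2 fell with the replicate block or without 4OHT library 3. Hoxb9 stood at 1.12, 0.830, 0.989 and 1.40 CPM under DMSO and 7.35, 4.90, 6.14 and 9.39 CPM under 4OHT (2.68). Hoxb1 had a log2 fold change of 1.70 without passing, and passed by edgeR with the replicate block (2.14, adjusted p = 0.0336) and without DMSO library 1 (3.23, adjusted p = 0.00674).

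Pluripotency genes did not move as one. Of 28, 8 rose and 11 fell (median -0.16). Nanog, a core factor of the naive state, was at 250.5, 269.6, 288 and 263 CPM under DMSO and at 80.3, 107, 116 and 87.9 CPM under 4OHT. All treated libraries were well below the controls (-1.45, SE 0.0946). Prdm14 (-1.54), Tcl1 (-1.48), Klf2 (-0.57) and Fgf4 (-1.07) fell with it, while Dppa2 (0.97), Klf5 (0.75) and Tbx3 (0.64) rose. Pou5f1 (-0.17, adjusted p = 0.0936 by edgeR) and Sox2 (0.04, adjusted p = 0.679) did not pass. With the replicate block Pou5f1 passed (adjusted p = 0.00854 by edgeR), and without 4OHT library 1 its adjusted p was 0.0448. Without a filter on low counts its adjusted p was 0.0284 by edgeR. Among 18 genes of the formative or primed epiblast, 8 were called higher and 7 lower. Pou3f1, a factor of the formative state, rose from 8.93, 8.97, 7.02 and 9.11 CPM to 16.7, 17.7, 21.0 and 21.9 CPM (1.18), while Fgf5, the usual marker of the same state, fell (-1.65, 145 to 46 counts, groups overlapping). Otx2 had log2 fold change 0.03 (adjusted p = 0.882 by edgeR).

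The Nodal pathway, a TGF-beta signal relayed by SMAD2 and SMAD3 and restrained by the Lefty proteins, had 9 genes higher, 11 lower and 8 that did not pass among the 28 members tested, BMP genes included (median 0.01). Lefty2 stood at 39.5, 46.4, 59.2 and 58.1 CPM under DMSO and 6.35, 10.4, 10.1 and 7.33 CPM under 4OHT (-2.57, SE 0.156). Lefty1 went from 79.99, 76.4, 98.1 and 99.1 CPM to 17.4, 22.7, 25.004 and 18.995 CPM (-2.07). Both inhibitors were lower in all 4 treated libraries. The co-receptor Tdgf1 (-0.87) and the receptor Acvr2b (56.3 to 19.6 CPM, SD 3.14 and 1.62, -1.52) fell. Nodal rose from 26.7, 24.5, 25.8 and 26.2 CPM to 49.1, 43.3, 44.7 and 45.8 CPM (0.83, SE 0.0691). On the BMP side, Bmp4 (0.54) and the target genes Id1 (1.07), Id2 (0.95) and Id3 (1.501) rose and the inhibitory Smad6 fell (-0.98).

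FGF signals pass through ERK to the ETS factors and to feedback inhibitors. Of 26 members, 14 rose and 5 fell (median 0.40). Etv4 was at 82.4, 53.8, 38.1 and 42.1 CPM under DMSO and at 191, 184, 181 and 169.9 CPM under 4OHT (1.75). The feedback gene Spry4 was at 80.7, 50.1, 43.4 and 42.7 CPM and then at 215, 181, 171 and 149 CPM (1.72). For both, DMSO library 1 was the highest control and still below every treated library. The phosphatases Dusp6 (1.02) and Dusp4 (1.62), Phlda1 (1.74), Myc (1.00) and Fosl1 (2.74) rose. The ligands Fgf4 (-1.07) and Fgf8 (-3.0002) and the immediate early genes Fos (59.3, 75.6, 84.8 and 89.4 CPM to 18.5, 31.6, 30.7 and 32.4 CPM, -1.45) and Fosb (-1.21) fell.

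Wnt and primitive streak genes divided, 7 higher and 8 lower of 27. The ligands Wnt8a (0.977 to 7.15 CPM, 2.86) and Wnt3 (1.84) and the feedback genes Notum (1.37), Sp5 (1.25) and Axin2 (0.51) rose. The streak factor T fell (4.88 to 1.78 CPM, -1.45), as did the receptor Lgr4 (-0.69). Of 23 primitive endoderm and basement membrane genes 15 rose and 0 fell (median 0.57), and 1 fell with the replicate block or without DMSO library 1. With the authors' scaling factors or without a filter on low counts 1 fell as well. Col4a1, a collagen of basement membranes, was at 103, 96.9, 76.4 and 98.4 CPM and reached 186, 214, 154 and 273 CPM (1.14). The lineage factors stayed low: Gata6 rose from 1.84 to 3.54 CPM (0.94, groups overlapping), Foxa2 from 0.119 to 0.484 CPM, and Sox17 had log2 fold change 0.36 (adjusted p = 0.408 by edgeR). The part of the endoderm marker levels given above in these values was not tested.

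Trophectoderm factors and keratins had 5 up (3 without 4OHT library 4 or DMSO library 2 or 4) and 3 down of 18. Without a filter on low counts 3 were up as well. Tead4 (31.5 to 13.0 CPM, -1.27) and Elf5 (95 to 16 counts) were down and Cdx2 was at 0.33 without passing. Of 16 neural genes 6 rose and 2 fell (median 0.34). Neurod1, a neurogenic transcription factor, rose from 5.44, 3.73, 3.98 and 2.91 CPM to 21.2, 16.8, 18.8 and 18.1 CPM (2.22) and Pax6 fell (-1.73). Of 12 blood and endothelial genes 7 rose and 0 fell (median 0.83), and 1 fell with the replicate block or without 4OHT library 2. Germline genes (4 up and 6 down of 22) and fibroblast genes (2 up and 3 down of 11, and 1 up without 4OHT library 2 or 3 or DMSO library 2, 3 or 4) showed no common direction. Without a filter on low counts 1 fibroblast gene was up. Imprinted genes were 11 up and 11 down of 32, with the Prader-Willi locus gene Magel2 at 2.02 and 8.93 CPM (2.14) and Usp29, which shares its promoter region with Peg3, at 12.6 and 4.16 CPM (-1.61).

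The transcription factor p53 is held down by MDM2, which is also its target, and turns on genes of cell-cycle arrest, DNA repair and death. Of 33 genes, 29 rose, 14 of them at least 2-fold (median 0.91). Mdm2 was at 113, 91.0, 80.02 and 87.3 CPM under DMSO and at 358, 313, 307 and 362 CPM under 4OHT (1.85). Perp, a desmosomal protein of p53-driven death, was at 32.3, 26.1, 18.0 and 30.8 CPM and then at 159, 136, 116 and 159.9 CPM (2.41). In both, the lowest treated library exceeded the highest control. Dcxr, a carbonyl reductase, had one of the 5 smallest p-values of all entries: 10.8, 10.7, 10.4 and 12.2 CPM against 49.6, 48.7, 52.97 and 54.4 CPM (2.23, SE 0.0789, adjusted p = 8.78e-11 by edgeR). The kinase Plk2 (1.84), the death receptor Fas (0.257 to 2.42 CPM, 44 to 409 counts), Ccng1 (1.22), Cdkn1a (1.09) and the killer gene Pmaip1 (1.16) rose. Sesn1 (-0.74) and Xpc (-0.35) fell. Trp53 mRNA was 239.8 and 231 CPM (-0.05 on the log2 scale, by edgeR at adjusted p = 0.504) and Rrm2b had 0.15. In the BCL2 family, which sets the threshold of apoptosis, 4 rose (2 without 4OHT library 1 or 2 or DMSO library 3) and 5 fell of 15. The protective Bcl2l1 (1.03) and Mcl1 (0.72) rose, and Bcl2 (3.08 to 0.953 CPM, -1.69) and the killer Bmf (-1.03) fell.

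Stress pathways differed from each other. In the integrated stress response, in which ATF4 drives amino acid genes, 10 rose and 11 fell of 28. Atf4 was at 99.7, 100.4, 93.8 and 89.9 CPM and then 126, 135, 129 and 129 CPM (0.43), and the stress genes Chac1 (1.77), Atf3 (1.48), Trib3 (1.12) and Ddit3 (1.095) rose with it. The serine and asparagine genes of the same list fell: Psat1 from 261, 217, 187 and 188 CPM to 87.3, 88.3, 73.6 and 77.2 CPM (-1.39), Phgdh (-1.39), Shmt2 (-0.94) and Asns (-0.72). Of 24 heat shock and ER chaperones 6 rose, led by Hspb1 (1.02), and 12 fell, with Hspa5 at -0.29. In the NRF2 list 5 rose and 16 fell of 25. Hmox1 rose (0.92), while the pentose phosphate enzyme Tkt fell from 239 to 109 CPM (SD 6.64 and 3.33, -1.13). Among 24 interferon response genes and RNA sensors 0 rose and 9 fell, such as Gbp7 (-2.88), Irf1 (28.5 to 10.4 CPM, -1.46) and Oasl2 (-1.61). The RNA sensor Ddx58 (-0.18) did not pass. With the replicate block, with scaling over gene entries only or without DMSO library 1, 1 of the 24 rose, and without 4OHT library 2, 2 rose.

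Cholesterol is made from acetyl-CoA by a chain of enzymes whose genes are turned on by SREBP2, which is escorted by SCAP and retained by INSIG1. Of 26 members 25 fell and 1 rose, with 20 falls of at least 2-fold (median -1.71). Hmgcs1, the first committed enzyme, was at 243, 307, 293 and 311 CPM under DMSO and at 70.7, 73.9, 61.0 and 60.2 CPM under 4OHT (-2.12, SE 0.0861). Msmo1, a later demethylase, was at 116, 166, 142 and 140.2 CPM and then at 27.3, 26.3, 22.4 and 26.9 CPM (-2.46). All 4 treated libraries were below all 4 controls for both. Insig1 fell (-2.47), and so did Srebf2, the gene of SREBP2 (277, 292, 309 and 308 CPM to 136, 140.0, 139 and 137 CPM). The member that rose was Scap, from 46.9, 42.6, 43.9 and 40.2 CPM to 93.4, 77.8, 75.3 and 92.7 CPM (0.97). Its treated libraries all exceeded its controls.

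Fatty acid synthesis and desaturation fell in the same way, 22 of 25 members lower and 1 higher (median -0.80). Scd1, the desaturase that makes oleate, was at 97.2, 155, 165 and 157 CPM under DMSO and 6.67, 10.8, 4.96 and 4.79 CPM under 4OHT (-4.38, SE 0.221). Its paralog Scd2 was at 551, 612, 638 and 649 CPM and then at 68.8, 94.5, 61.2 and 62.3 CPM (-3.09). The lowest control of Scd1, library 1, was still far above each treated library. Reads shared between the Scd paralogs could not be told apart here, and Mir5114, which also fell, lies inside Scd2. Fads2 (-2.48), Fasn, the synthase (677 to 292 CPM, SD 30.8 and 25.5, -1.21), Acaca (-1.06) and the lipogenic factor Srebf1 (-0.69) fell, and the elongase Elovl1 rose (0.27). That rise did not pass without 4OHT library 1, 2 or 4 or DMSO library 1, 2 or 3, nor without a filter on low counts.

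Glycolysis and the hypoxia response, driven by HIF1A, were lower as well: 28 of 35 members fell and 2, P4ha2 and Epas1, rose (median -0.67). P4ha2 did not pass without 4OHT library 1, 2 or 4 or DMSO library 1, 2 or 4, which leaves 1. Ldha, which turns pyruvate into lactate, was at 425, 415, 525 and 436 CPM and then at 149, 196, 159 and 139.8 CPM (-1.48). Slc2a3, a glucose transporter, was at 975, 1078, 1421 and 1473 CPM and then at 409, 502, 486 and 522 CPM (-1.37). Treated and control libraries were apart for both. The HIF targets Egln3 (-1.79), Bnip3 (-1.71), Ndufa4l2 (-2.97) and Vegfa (-1.25) fell with them, each with its highest control in DMSO library 3. Hif1a mRNA had log2 fold change -0.07 (adjusted p = 0.385 by edgeR).

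Among 24 one-carbon and nucleotide synthesis genes 20 fell and 0 rose, from Mthfd1l (86.8 to 36.6 CPM, -1.24) and Tk1 (-1.19) to Adsl (-0.21). Tyms (0.02) and Cad (0.07) did not pass. Of 30 lysosome genes and targets of TFEB 14 rose, 6 fell and 10 did not pass (median 0.11). The protease Ctsd was at 102, 98.7, 94.9 and 106 CPM and then at 232, 213, 188 and 253 CPM (1.14), and the membrane protein Lamp1 rose (0.70). Tfeb itself fell (15.4 to 9.52 CPM, -0.69).

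Promoters of 4 of these genes are shown because the lists that moved have known regulators with short recognition motifs. The genes were chosen after the matches were seen. Each line gives the 250 bases before the RefSeq start, 5′ to 3′ on the gene's strand (GRCm38.p6), with motif matches in capitals. Hmgcs1 (chr13:119690101-119690350, plus strand) holds the sterol response element TCACNCCAC, Ldha (chr7:46845554-46845803, plus) the hypoxia core ACGTG on either strand, Ctsd (chr7:142387828-142388077, minus) the CLEAR core CACGTG bound by TFEB, and Myl9 (chr2:156775214-156775463, plus), an SRF target described below, a CArG box.
Hmgcs1: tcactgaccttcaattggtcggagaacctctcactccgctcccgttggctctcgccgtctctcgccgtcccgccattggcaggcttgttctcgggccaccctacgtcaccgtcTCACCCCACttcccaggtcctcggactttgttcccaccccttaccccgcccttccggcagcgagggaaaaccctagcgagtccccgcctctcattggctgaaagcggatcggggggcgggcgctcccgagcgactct
Ldha: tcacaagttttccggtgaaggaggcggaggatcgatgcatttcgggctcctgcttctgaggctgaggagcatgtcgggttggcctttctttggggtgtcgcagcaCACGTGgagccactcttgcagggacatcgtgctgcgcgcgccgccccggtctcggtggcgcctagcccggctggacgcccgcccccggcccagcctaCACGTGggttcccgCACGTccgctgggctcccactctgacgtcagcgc
Ctsd: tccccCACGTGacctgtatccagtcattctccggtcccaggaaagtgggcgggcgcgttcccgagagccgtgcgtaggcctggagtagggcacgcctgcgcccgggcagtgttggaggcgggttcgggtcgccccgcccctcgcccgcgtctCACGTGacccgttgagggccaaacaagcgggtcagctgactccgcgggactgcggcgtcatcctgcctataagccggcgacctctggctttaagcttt
Myl9: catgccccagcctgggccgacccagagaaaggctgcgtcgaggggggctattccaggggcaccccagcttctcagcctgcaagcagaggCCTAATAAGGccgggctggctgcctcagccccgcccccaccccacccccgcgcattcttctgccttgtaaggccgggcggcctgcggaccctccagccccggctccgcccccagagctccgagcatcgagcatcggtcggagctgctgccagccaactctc
Motifs were searched on both strands in windows from 250 bases before to 50 after the start for 27025 symbols. The sterol element was found in 1 of 18 sterol genes with a window (5.56%) and in 2 of 23 fatty acid genes (8.7%), against 1.44% of all symbols. ACGTG, which also lies within CACGTG, was in 24 of 31 glycolysis and hypoxia genes (77.4%, against 21.8%). CACGTG was in 10 of 24 lysosome genes (41.7%, against 8.09%) and the CArG box in 6 of 21 SRF and YAP genes (28.6%, against 1.81%). CCAAT was in 16 of 18 sterol genes (88.9%), 52 of 60 histone genes (86.7%) and 22 of 27 replication genes (81.5%), against 41.1%. No match was found for the p53 element in 26 p53 genes, for the Dux motif in 17 two-cell genes or for the AP-1 site TGANTCA in 16 FGF-ERK genes, with 0.0111%, 0.0407% and 8.97% of all symbols holding one. These are descriptions of letters, not of binding.

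SRF with its actin-sensing cofactors and YAP with TEAD are the nuclear ends of cytoskeletal tension. Of 26 targets and factors 18 rose and 2 fell (median 0.57). The smooth-muscle actin Acta2 was at 50.5, 38.9, 21.4 and 29.6 CPM and then at 83.3, 106, 88.5 and 149.8 CPM (1.602). Ccn1, a matricellular YAP target, was at 54.4, 42.8, 28.1 and 44.6 CPM and then at 128, 121, 118 and 171 CPM (1.66). In both genes 4OHT library 4 was the highest. Ccn2 (1.61), Myl9 (1.47), Zyx (1.04), Tagln (1.08) and Srf (0.49) rose. Yap1 fell (128 to 84.3 CPM, -0.61) together with Tagln2 (-0.37).

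Adhesion genes included rises of E-cadherin Cdh1 (0.30), N-cadherin Cdh2 (1.29) and Snai1 (1.25), and falls of Cldn7 (-1.14), the epithelial splicing factor Esrp1 (-0.96) and Epcam (-0.53), 8 and 5 of 21 in all. Of 53 collagen and Adamts genes 23 rose and 6 fell (median 0.32), and 10 fell without 4OHT library 4. Col20a1 was at 2.09, 1.99, 3.02 and 2.57 CPM and then at 28.4, 24.6, 33.9 and 34.0 CPM (3.65), and Col6a4 was at 0.908 and 10.8 CPM (3.57). The adenylyl cyclases, which make cyclic AMP, and the phosphodiesterases, which break it down, went both ways (10 up and 9 down of 29). The soluble cyclase Adcy10 was at 0.418, 0.425, 0.247 and 0.530 CPM and then at 9.09, 8.37, 6.21 and 8.50 CPM (4.30), Adcy4 rose by 3.89 and Pde2a by 2.42, and Adcy3 (-1.04) and Pde3b (-1.42) fell.

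Of 37 DNA replication and cell cycle genes 31 fell and 2 rose (median -0.60). Cdc6, which loads the replicative helicase, was at 43.5, 44.0, 45.6 and 47.9 CPM and then at 18.5, 22.8, 21.2 and 17.0 CPM (-1.19). Ccne1 (-1.01), Pcna (-0.75) and Mki67 (-0.55) fell, and the cyclin Ccnd2 (1.06) and the inhibitor Cdkn2b (0.74) rose. Of 67 replication-dependent histone genes, which are near copies of one another, 52 fell and 0 rose (median -0.43). Of 89 cytosolic ribosomal protein genes 7 rose (11 without DMSO library 1) and 39 fell (median -0.13), and Rpl3, a core protein of the large subunit, fell from 687, 679, 739 and 682 CPM to 470.4, 495, 483 and 436 CPM (-0.56). Pseudogene copies make these counts uncertain. Among all protein-coding genes over 100 CPM 21.9% rose and 47.0% fell (median -0.13). The falls of ribosomal protein genes are near that share and are not particular to them. Of 27 ribosome biogenesis genes 3 rose (5 with the replicate block or without DMSO library 1) and 10 fell, with Npm1 at -0.30 and Ncl at -0.26. Of 73 nuclear genes of the respiratory chain 38 fell and 1, Ndufa13, rose (median -0.30). That count was 0 without DMSO library 2, 3 or 4 or 4OHT library 1, 2 or 3. It was also 0 with the authors' scaling factors or without a filter on low counts. It was 2 without 4OHT library 4 and 3 without DMSO library 1 or with the replicate block. Ndufa7 (-0.69) and Sdhb (-0.67) fell most, and Cox4i1 had 0.04 (adjusted p = 0.618 by edgeR). Of 15 mitochondrially encoded transcripts 3 rose and 2 fell, with mt-Nd1 at 0.44 and mt-Co1 at -0.58. Of these 15, 8 fell without a filter on low counts, 7 with the replicate block, 5 without 4OHT library 2 and 4 without DMSO library 4.

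Gene structure was compared between those that rose and fell, as description. Among protein-coding genes that span over 200 kb, 296 of 812 rose (36.5%, 95% exact binomial interval 33.1 to 39.9%) and 16.5% fell. In the bins under 100 kb, 22.3 to 24.5% rose and 24.8 to 32.0% fell. The difference was widest among genes over 100 CPM, where 62.2% of 45 genes over 200 kb rose and 11.1% fell, against 13.9% and 51.2% of 244 genes under 10 kb. Across 15301 protein-coding genes, span and log2 fold change had a Spearman rho of 0.02, while level under DMSO had -0.27, given as a description since genes share libraries. The DMSO level is also the denominator of the fold change, so error in it alone can make that rho negative. Of genes under 1 CPM, 23.3% rose and 7.41% fell, and over 100 CPM 21.9% and 47.0%. By biotype, 30.3% of 903 lincRNAs rose and 12.7% fell. On chromosome X, 15.9% of 736 genes rose and 26.2% fell.

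**Figure D4:**
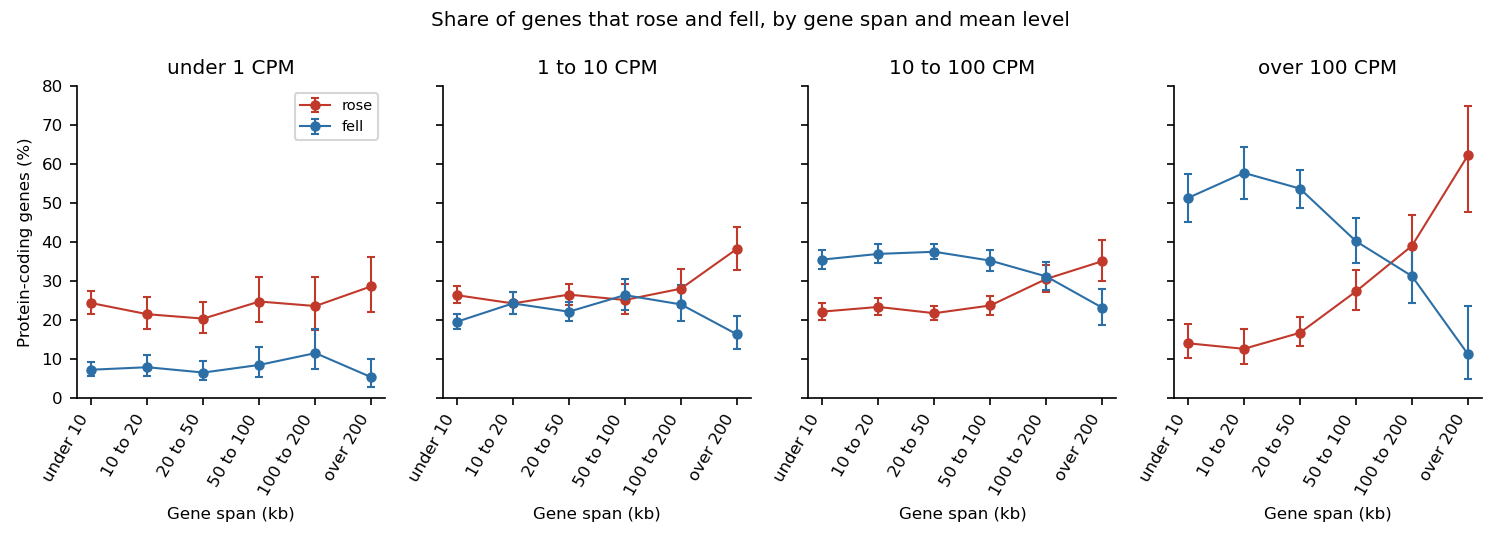
Percent of protein-coding genes that rose (red) or fell (blue) at an adjusted p under 0.05, by gene span in kb (horizontal axis) within 4 classes of mean CPM. Bars are 95% Wilson intervals, which cover counting error over genes only. Over 100 CPM the share that rose went from 13.9% under 10 kb to 62.2% over 200 kb.

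Neighbouring genes were looked at along each chromosome after the values were seen. Of 15301 protein-coding genes tested 1319 rose at least 2-fold (8.62%), and the next gene along rose as well in 256 of 1318 cases (19.4%). For falls these were 658 genes (4.3%) and 80 of 658 (12.2%). Some stretches are tandem copies, such as 8 Zscan4 genes, and their reads may be shared. Dppa3, Nanog and Slc2a3 all fell at least 2-fold (chr6:122626410-122801640). The adjacent leukotriene receptor genes Ltb4r2 and Ltb4r1 rose together with Adcy4 (chr14:55761428-55784095), and so did the adjacent collagen genes Col6a6, Col6a5 and Col6a4 on chromosome 9.

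The effect was set beside that in other cells with the conditional allele, 2 4OHT and 2 DMSO libraries labelled Dux-Het, in which Dux, the activator of two-cell genes, is heterozygous. For these libraries the genotype and treatment fields are shifted by 1 sample against the titles, and the titles were used. Ythdc1 was at 57.1 and 84.3 CPM under DMSO and 51.2 and 64.4 CPM under 4OHT in the libraries titled Dux-Het (CPM scaled over the 12 libraries). These groups overlap and the difference did not pass (-0.28, adjusted p = 0.498 by edgeR), so the targeted gene gives no check of those titles. No library is shared. The difference between the effects passed in 2 of 28277 entries by edgeR, 0.00707%, with 2843 at an unadjusted p under 0.05. With the library number as a replicate block it passed in 779, so the count depends on the fit. The 2 entries were Fos and Fosb. On CPM scaled over the 12 libraries, Fos was at 60.8, 76.8, 85.7 and 90.5 under DMSO and 18.5, 31.7, 30.3 and 32.1 under 4OHT, but at 3.27 and 1.49 under DMSO and 18.5 and 15.9 under 4OHT in Dux-Het cells (difference of log2 fold changes -4.33, SE 0.360, adjusted p = 1.85e-05 by edgeR). Fosb was at 134, 158, 142 and 173 and then 41.4, 71.4, 74.3 and 71.0, and in Dux-Het cells at 0.719 and 0.678 and then 22.7 and 19.3 (-6.14, SE 0.319, adjusted p = 2.56e-08 by edgeR). These genes thus fell in the 8 libraries and were higher under 4OHT in Dux-Het cells, where the controls held far less of them.

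Other effects are given side by side. In the main fit, without the replicate block, none of these differences passed. With the block those of Nanog (-0.83, adjusted p = 0.000352 by edgeR), Lefty1 (-1.61, adjusted p = 0.00186), Spry4 (1.53, adjusted p = 1.09e-06) and Dusp6 (0.98, adjusted p = 0.00191) did. The other alternative fits were not examined for these genes. Log2 fold changes in the 8 libraries and in Dux-Het cells were -4.38 and -3.82 for Scd1, 1.73 and 1.71 for Neat1, 3.29 and 3.40 for Cd80 and 2.88 and 3.15 for Zscan4c. Mdm2 had 1.85 and 2.37 (difference -0.53, SE 0.197, adjusted p = 0.367 by edgeR). Nanog had -1.45 and -0.65 (-0.82, SE 0.168, adjusted p = 0.106) and Lefty1 -2.07 and -0.40 (-1.68, SE 0.320, adjusted p = 0.091). Spry4 had 1.72 and 0.19, and Dusp6 1.02 and 0.01. With 2 libraries per treatment in Dux-Het cells, a difference that misses the threshold does not show that the effects are alike.

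**Figure D5:**
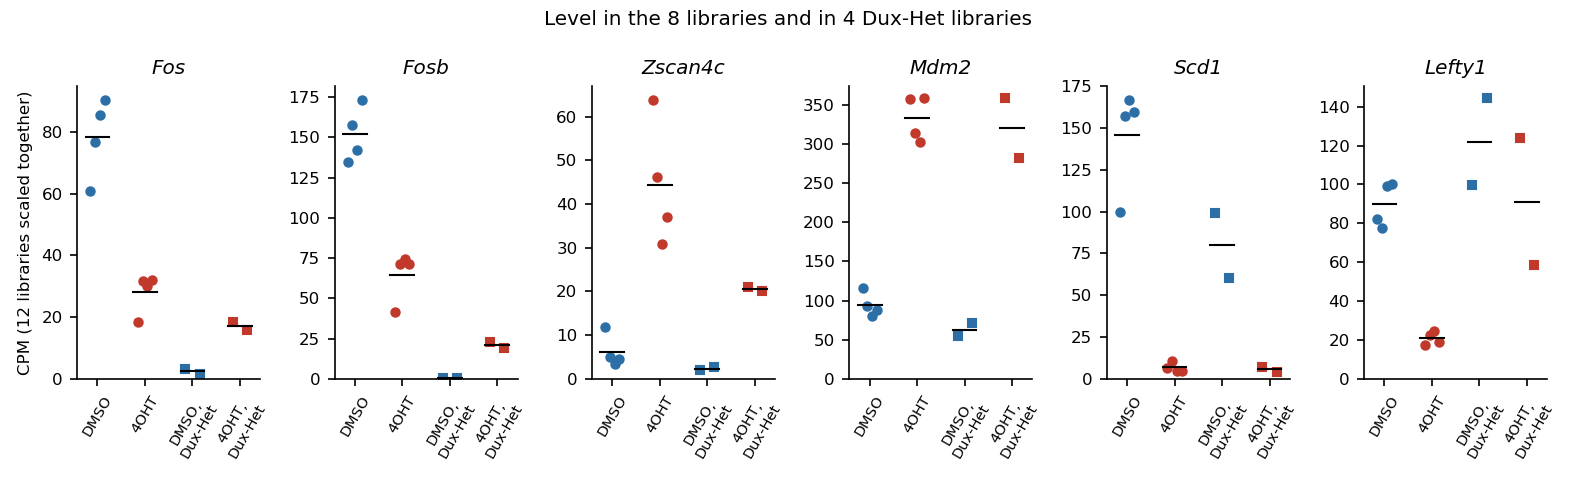
CPM scaled over 12 libraries (vertical axes, linear from 0) of 6 genes in the 8 libraries (circles) and in Dux-Het cells (squares), DMSO in blue and 4OHT in red, with lines at the means. Fos and Fosb fall with 4OHT in the first set and are higher with 4OHT in the second, while Zscan4c and Mdm2 are higher and Scd1 lower with 4OHT in both.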

How the data were processed

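Total RNA, depleted of rRNA with RNase H per the labels' protocols, was sequenced as paired ends. Tools listed in the submitters' processing notes are STAR 2.7, RSEM, Bowtie2 and bcl2fastq, with mm10 as the build. The sources used here do not say which program made the table, with what annotation, or how strand and reads with several matches were handled. The deposited table holds raw counts per gene or repeat family, 44749 entries in all, and columns of other groups (10) were not used. The authors' second table, a signal of counts divided by 1 factor per library, served only for an alternative scaling.

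Entries were filtered with filterByExpr, scaled by TMM and tested with edgeR 4.0.16 in R 4.3.3 (quasi-likelihood test, Benjamini-Hochberg adjusted p under 0.05), 4 against 4 without covariates. CPM values use TMM library sizes, and SEs are the log2 fold change divided by the root of F. On simulated counts (23883 entries) 100 entries were changed by 2-fold and 100 by 1.5-fold, all above a floor of mean counts. The fit recovered 92% and 57% of them, with 10 false calls. Recovery among entries with few counts, or with as large a share of entries changed as in the data, was not measured. DESeq2 1.42.0, other scalings, no filter, a replicate block and each library left out were alternatives. Deviations from group means correlated at 0.351, 0.115, 0.365 and 0.378 between same-numbered DMSO and 4OHT libraries 1 to 4 (9916 entries). Between libraries of unlike number the values were -0.307 to 0.0871, the highest for DMSO library 1 with 4OHT library 2. The pair numbered 2 therefore stands out little. The numbers served as a replicate block in an alternative fit and not in the main one. The pairing comes from the data and not the labels.

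The members and the 43 gene lists were chosen with earlier results of these data known. Named genes are Ythdc1, the 8 gene entries with the largest rise and the 8 with the largest fall in mean CPM, the 10 with the largest fold in each direction at 10 CPM or more in the higher group without predicted names or repeat families, and the 5 smallest p-values, all past the threshold with groups that do not overlap, then anchors and up to 4 extremes per list, and entries whose effect differed from Dux-Het cells at 10 CPM or more in 1 group. Named after their values were seen were Srrt, Myc, Xist, Tug1, Eif4e3, Ubtfl1, Suz12, Klf2, Dppa2, Klf5, Tbx3, Tdgf1, Bmp4, Id1, Smad6, Dusp4, Notum, Sp5, Lgr4, Plk2, Ccng1, Pmaip1, Sesn1, Xpc, Rrm2b, Trib3, Asns, Hmgcs1, Scap, Acaca, Srebf1, Elovl1, P4ha2, Epas1, Vegfa, Adsl, Myl9, Zyx, Tagln, Yap1, Tagln2, Esrp1, Adcy3, Pde3b, Pcna, Cdkn2b, Ndufa13, Ltb4r1, Col6a6, AY036118, Mir6236 and Rprl3. Some items are not reported here.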

Additional observations from a re-analysis of the deposited data

Results flagged for a closer look

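In a group of 4 libraries, 1 library stood apart when its gap to the nearest other, divided by the range, passed Dixon's critical value at 95%. For the genes named in the text this held in 21 of 438 gene groups (4.79%), and chance alone gives about 1 in 20. AY036118, Mir6236 and Rprl3 are among them and were named because 1 library held most of their DMSO counts. The share is therefore no test against chance. Values below are CPM in the library that stood apart, given without an explanation. In DMSO library 1 these were Scd1 (97.2), Zfp352 (0.233), Sesn1 (6.83), Epcam (49.8), Sdhb (31.7), AY036118 (5299) and Mir6236 (339). In DMSO library 2 it was Spz1 (0.0386), and in DMSO library 3 Pou3f1 (7.02), Egln3 (27.6), Cdh1 (607) and Rpl3 (739). In DMSO library 4 these were Chaf1b (49.7) and Rprl3 (90.0). In 4OHT library 1 these were Igf2bp3 (69.1), Fos (18.5) and Fosb (41.5), in 4OHT library 3 Cox4i1 (99.0), and in 4OHT library 4 Dppa3 (3.25), Axin2 (28.6) and Rrm2b (9.51).

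Fos and Fosb were also set aside because their 4OHT effect differed from that in Dux-Het cells by a test of the difference. The differences of log2 fold changes were -4.33 and -6.14. Both fell in each of the 4 treated libraries below the controls, and both Dux-Het 4OHT libraries were above the Dux-Het controls.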

How the results depend on the processing

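The count of entries past the threshold, 11008, stayed within 1.5 times in all 13 alternatives run: 11374 by DESeq2, 11034 with the authors' factors, 10994 with TMM over gene entries, 11715 without a filter, 11904 with the replicate block, and 9910 to 10931 with each library left out. No entry called in both changed direction, and 87.05% or more of the entries that rose still rose in each. The 2-fold count, 3169, was 4022 without a filter and 2936 to 3433 with a library left out. The share of genes over 200 kb that rose, 36.5%, was 32.3% without a filter and 33.0 to 35.4% with a library left out. The count of entries whose effect differed from Dux-Het cells, 2, was 294 by DESeq2, 6 with the authors' factors, 6 with TMM over gene entries, 602 without a filter, 779 with the replicate block, and 2 to 124 with a library left out. It was 124 without Dux-Het 4OHT library 2, 74 without Dux-Het DMSO library 1, 72 without DMSO library 1, 45 without Dux-Het DMSO library 2, 13 without Dux-Het 4OHT library 1 and 4 without 4OHT library 3. The cause was not tested. The split of those calls was 179 higher and 115 lower by DESeq2, 373 and 229 without a filter, and 395 and 384 with the block. Among 2844 values of named genes, 27 no longer passed, 5 newly passed and 1 reversed: Rprl3, -4.64 to 0.14 with a library left out, the highest without DMSO library 4. Without DMSO library 1 AY036118 was at -0.01, and with the replicate block at -1.93 (adjusted p = 0.11 by edgeR). For 4OHT against DMSO in the 8 libraries, the block changed no other call of a named gene beyond those given with the results. Values of some genes with few counts moved as well: without DMSO library 1 Tdpoz3 had 7.04 and Zfp352 5.65, and without DMSO library 2 Spz1 had 7.68 and Rmst 3.601, while Foxa2 had 2.62 without DMSO library 3.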

Other observations

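AY036118 fell by edgeR although its groups overlap. It was at 5299, 8.72, 4.72 and 10.54 CPM under DMSO and 10.2, 4.21, 6.05 and 11.5 CPM under 4OHT. One control library held nearly all of its counts, and without it the log2 fold change was -0.01 (-7.39 with it). Mir6236 was at 339, 13.0, 5.78 and 0.900 CPM and then at 0.819, 1.69, 0.289 and 0.430 CPM (-6.72, and -2.995 without DMSO library 1, where it still passed at adjusted p = 0.000771 by edgeR). Rprl3 was at 1.32, 1.06, 0.964 and 90.0 CPM and then at 1.45, 1.06, 0.771 and 1.69 CPM (-4.23, and 0.14 without DMSO library 4). These 3 entries were picked after their values were seen, because 1 library held most of their counts under DMSO.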
